A study of Rattus norvegicus with 24 samples.

Results

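Serpins are a family of proteins named for their serine protease inhibitors, and the genes described here were all those whose name on the array began with Serpin followed by a clade letter from a to i and a number. This rule took 47 of the 30367 probes and 41 of the 26278 gene names measured in rat liver. They were split by role into 14 genes whose products hepatocytes secrete into plasma and 27 others. A gene was tested if its probe was well above the local background in at least 6 of the 24 rats, which held for all 14 hepatocyte-secreted genes and for 10 of the 27 others, among 18643 genes tested in all.

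The study measured liver RNA on one-colour Agilent arrays in 24 male Wistar rats, 6 on each of 4 purified diets fed for 12 weeks from the age of 6 months. Copper was either low (under 0.3 mg per kg) or adequate (125 mg per kg), and sucrose made up 30% or 10%. The sample labels call the diets with 125 mg per kg High Cu. The 4 combinations are called low-copper/30%, adequate-copper/30%, low-copper/10% and control, the last holding adequate copper and 10% sucrose. All were based on the AIN76A formulation, with starch and dextrin making up the carbohydrate, so that the control rats also ate sucrose, and the series title presents the diets as a model of non-alcoholic fatty liver disease.

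An inhibitory serpin offers a protease an exposed loop as bait. When the loop is cut, the serpin changes shape and traps the enzyme in an inactive complex. Liver is the main source of the plasma serpins that limit clotting, fibrinolysis, complement and leukocyte elastase, while some members inhibit nothing and carry hormones or assist protein folding instead. Most clade B serpins lack a classical signal peptide and act inside cells.

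Levels are the log2 processed signal of a probe minus the log2 75th percentile of its array, so that 0 is the level of the spot at that percentile. They compare rats for one probe and are not set against each other between probes. The 24 arrays lay on 3 slides: slide 1 held 6 low-copper/30% and 2 adequate-copper/30% rats, slide 2 held 4 adequate-copper/30% and 4 low-copper/10% rats, and slide 3 held 2 low-copper/10% and 6 control rats. Adequate-copper/30% and control rats shared no slide, so their contrast can be separated from slide only through the rats of other diets. The same holds for low-copper/30% rats against control and against low-copper/10% rats. With slide as a fixed block, the copper difference at 30% sucrose equals that within slide 1, and at 10% sucrose that within slide 3. Each of these thus rests on only 2 rats of 1 diet, and the block and the slide are not separate checks. Between 64.1% and 74.7% of the spots of an array were well above background, and the 75th percentile of the processed signal ranged from 433 to 1284. All 8 hepatocyte markers were tested and 0 were called in any comparison, with a summed level of 10.0 to 11.4 in every rat. In whole tissue, fewer cells of a type and less RNA per cell cannot be told apart.

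The results turn on 4 genes, 2 of each class, and the 60-base probes that read them are shown first, from 5′ to 3′ as the files give them, with the rn4 position. Serpina6, transcortin, carries corticosterone in plasma, and Serpina7 carries thyroid hormone. Serpinb2 is plasminogen activator inhibitor 2, and Serpinb7 is megsin, known in human and rat from kidney mesangial cells. No base is set in capitals, since no part of these probes is singled out.
Serpina6: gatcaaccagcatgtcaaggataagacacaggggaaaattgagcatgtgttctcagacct
Serpina7: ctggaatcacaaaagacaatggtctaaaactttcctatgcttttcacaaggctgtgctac
Serpinb2: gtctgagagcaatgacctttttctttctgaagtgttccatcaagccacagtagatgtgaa
Serpinb7: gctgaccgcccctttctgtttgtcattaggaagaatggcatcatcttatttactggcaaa

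The Serpina6 probe lay on the minus strand at chr6:127918757-127918816, and the Serpinb2 and Serpinb7 probes on the plus strand at chr13:13640735-13640794 and chr13:13506298-13506357. The 60 bases of the Serpina7 probe spread over 772 bases of the minus strand at chrX:126739867-126740638, which means that they bridge at least 1 intron. Exons and untranslated regions were not placed, as no transcript model of this build was used here.

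Most of the plasma serpins gave no call over the 4 diets. Of the 14 hepatocyte-secreted genes, 1 passed the threshold (adjusted p under 0.05) in each of the contrasts of adequate-copper/30% and low-copper/10% with control, where 20.9% and 18.6% of all genes did. In the copper-by-sucrose interaction 2 passed, where 20.8% of all genes did, and in the other 3 contrasts 0 passed, where 1.76%, 0% and 0% of all genes did. The genes called were Serpina6 and Serpina7, and the other 12 are described first. In the contrast of adequate-copper/30% with control, the log2 differences of these 12 lay between -0.34 and 0.24, with 95% intervals reaching from -0.68 to 0.57. The gap between the highest and the lowest diet mean had a median of 0.18 over the 14 hepatocyte-secreted genes and 0.36 over the 10 others, beside 0.33 over all genes tested. The spread between rats of one diet was also smaller, with a median SD of 0.28 for the hepatocyte-secreted genes, 0.41 for the others and 0.32 for all genes.

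The inhibitors of clotting and fibrinolysis had gaps of 0.13 to 0.17 between their highest and lowest diet means. Serpinc1, antithrombin, averaged 8.10 ± 0.22 on low-copper/30%, 8.23 ± 0.28 on adequate-copper/30%, 8.27 ± 0.14 on low-copper/10% and 8.26 ± 0.20 on control (SD, n = 6 each, here and below). Serpind1, heparin cofactor II, averaged 4.39 ± 0.24 on low-copper/30%, 4.36 ± 0.28 on adequate-copper/30%, 4.27 ± 0.08 on low-copper/10% and 4.32 ± 0.27 on control. Serpina10, the protein Z-dependent inhibitor of factor Xa, averaged 5.43 ± 0.04 on low-copper/30%, 5.59 ± 0.27 on adequate-copper/30%, 5.50 ± 0.23 on low-copper/10% and 5.59 ± 0.21 on control. These 3 genes overlapped between all diets, and the 6 low-copper/30% rats lay particularly close together for Serpina10. Serpinf2, the plasmin inhibitor alpha-2-antiplasmin, averaged 4.90 ± 0.12 on low-copper/30%, 4.99 ± 0.17 on adequate-copper/30%, 4.99 ± 0.20 on low-copper/10% and 5.05 ± 0.23 on control.

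The inhibitors of leukocyte proteases, kallikrein and complement gave no call either. Serpina1, alpha-1-antitrypsin, the main plasma inhibitor of neutrophil elastase, averaged 8.37 ± 0.30 on low-copper/30%, 8.39 ± 0.30 on adequate-copper/30%, 8.43 ± 0.14 on low-copper/10% and 8.46 ± 0.26 on control. Serpina4, kallistatin, an inhibitor of tissue kallikrein in human, averaged 7.02 ± 0.29 on low-copper/30%, 6.94 ± 0.43 on adequate-copper/30%, 6.98 ± 0.45 on low-copper/10% and 7.13 ± 0.23 on control. Serping1, the C1 inhibitor of complement, averaged 7.36 ± 0.13 on low-copper/30%, 7.42 ± 0.46 on adequate-copper/30%, 7.46 ± 0.32 on low-copper/10% and 7.48 ± 0.17 on control. Single rats widened some SDs: Serping1 reached 8.27 in adequate-copper/30% rat 5 and 8.09 in low-copper/10% rat 2, where Serpina4 was at 6.13. On adequate-copper/30% Serpina4 spread both ways, from 6.33 in rat 5 to 7.65 in rat 1.

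The 3 rodent genes related to human alpha-1-antichymotrypsin had differences of both signs. Serpina3n averaged 8.35 ± 0.24 on low-copper/30%, 8.63 ± 0.39 on adequate-copper/30%, 8.53 ± 0.20 on low-copper/10% and 8.39 ± 0.25 on control. Serpina3m averaged 4.73 ± 0.10 on low-copper/30%, 4.58 ± 0.45 on adequate-copper/30%, 4.62 ± 0.29 on low-copper/10% and 4.92 ± 0.21 on control. Serpina3k, now named Serpina3c, averaged 7.65 ± 0.31 on low-copper/30%, 7.58 ± 0.41 on adequate-copper/30%, 7.78 ± 0.26 on low-copper/10% and 7.84 ± 0.42 on control. Against control, adequate-copper/30% gave a log2 difference of 0.24 for Serpina3n (95% interval -0.10 to 0.57, adjusted p = 0.328), -0.34 for Serpina3m (-0.68 to 0.01, adjusted p = 0.162) and -0.26 for Serpina3k (-0.68 to 0.15, adjusted p = 0.395), and none of these passed. The genes are close relatives, and cross-hybridisation of their probes was not tested.

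Of the remaining plasma serpins, Serpinf1, pigment epithelium-derived factor, a secreted member that inhibits no protease, averaged 5.94 ± 0.15 on low-copper/30%, 5.88 ± 0.33 on adequate-copper/30%, 5.90 ± 0.30 on low-copper/10% and 6.04 ± 0.23 on control. Serpina11 averaged 4.53 ± 0.24 on low-copper/30%, 4.70 ± 0.33 on adequate-copper/30%, 4.74 ± 0.26 on low-copper/10% and 4.68 ± 0.32 on control. Its dimmer second probe gave differences of the same sign in all 5 diet contrasts. The control diet had the highest mean for 9 of the 14 hepatocyte-secreted genes, and low-copper/30% had the lowest for 8 of them. In the contrast of low-copper/30% with control, 13 of the 14 lay below 0, with a median log2 difference of -0.15, beside 0.02 for the 10 others and 0.05 for all genes. The 8 hepatocyte markers leaned the same way, with 7 below 0 and a median of -0.16. Of 18 tested proteases and cofactors linked to plasma serpins, 12 lay below 0, with a median of -0.09. None of the serpin differences passed, and 1.76% of all genes were called in that contrast, 1.72% higher and 0.0375% lower. With slide as a block, all 14 lay below 0, with a median of -0.47, while the median over all genes became -0.12. None of the 14 passed in that fit (adjusted p = 0.998 for each), with SEs from 0.27 to 1.18. The 2 diets shared no slide, so these values were chained through rats of other diets, 2 of them on slide 1 and 2 on slide 3.

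**Figure D1:**
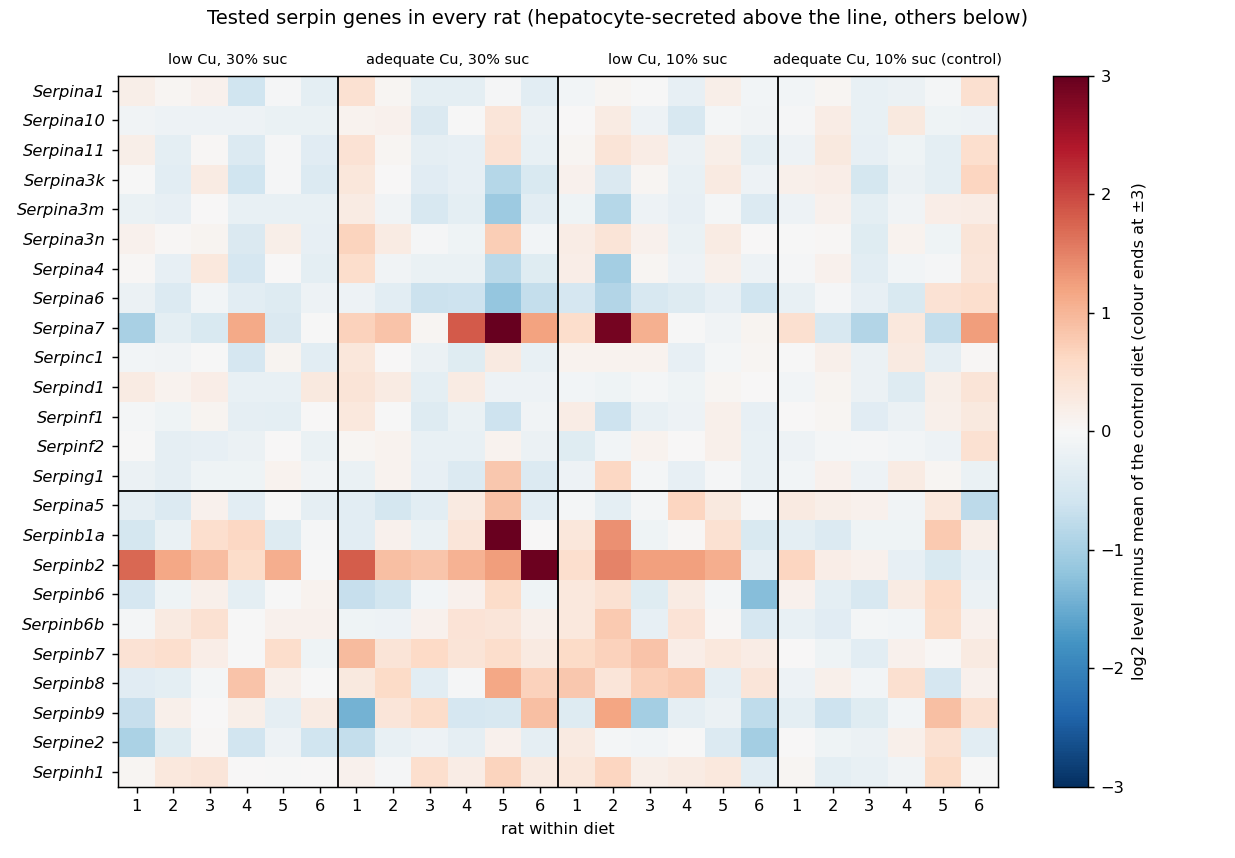
Each cell is the log2 level of a tested serpin gene (rows, hepatocyte-secreted above the line and others below) in a rat (columns, by diet) minus the mean of the 6 control rats. Most of the upper rows stay pale, while Serpina7 is dark red in adequate-copper/30% rat 5 and low-copper/10% rat 2, Serpina6 is blue in both, and Serpinb2 is red over most rats of the 3 modified diets.

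Serpina6 was the hepatocyte-secreted gene that fell in both diets with a single change. It averaged 2.21 ± 0.35 on adequate-copper/30%, with 2.67, 2.50, 2.17, 2.19, 1.65 and 2.11 in its 6 rats, against 2.82 ± 0.39 on control, with 2.60, 2.78, 2.57, 2.37, 3.26 and 3.33. Every adequate-copper/30% rat lay below the control mean and 4 of the 6 below the lowest control rat, although the groups overlapped. The log2 difference was -0.60 ± 0.17 (SE; 95% interval -0.95 to -0.26), a level 0.658 times that of control, with limma's adjusted p = 0.0128.

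Low-copper/10% rats showed a like difference in Serpina6, with an average of 2.30 ± 0.21 and values of 2.31, 1.94, 2.33, 2.43, 2.56 and 2.22. Here too all 6 lay below the control mean and 4 below the lowest control rat. The log2 difference from control was -0.52 ± 0.17 (95% interval -0.87 to -0.18, adjusted p = 0.0304). This call was lost when any of 5 rats was left out: without low-copper/10% rat 1, 2 or 3 the difference was -0.52, -0.45 or -0.53 (adjusted p = 0.0505, 0.0843 and 0.0526), and without control rat 5 or 6 it was -0.43 or -0.42 (adjusted p = 0.0824 and 0.0811). These 2 contrasts share the control rats.

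In low-copper/30% rats the difference of Serpina6 from control did not pass. They averaged 2.57 ± 0.14, with 2.63, 2.41, 2.74, 2.50, 2.43 and 2.67, between the diets with a single change and control. Against control the difference was -0.25 (95% interval -0.60 to 0.09, adjusted p = 0.490). Against adequate-copper/30% it was 0.35 (95% interval 0.004 to 0.70, adjusted p = 0.505), and against low-copper/10% it was 0.27 (-0.08 to 0.61, adjusted p = 0.596). The interaction, which is the copper difference at 30% sucrose minus the copper difference at 10% sucrose, was 0.87 ± 0.24 (95% interval 0.38 to 1.36, adjusted p = 0.0116).

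The slide moved with parts of this pattern. Within slide 1, low-copper/30% rats averaged 2.57 and the 2 adequate-copper/30% rats 2.59, a difference of -0.02, so the positive copper difference at 30% sucrose turned its sign. Within slide 3, the 2 low-copper/10% rats averaged 2.39 and control rats 2.82, a difference of -0.43. With slide as a fixed block the sucrose difference at adequate copper was -0.65 (adjusted p = 0.9998) and the interaction 0.40 (adjusted p = 0.581), so both kept their sign and lost the call, in a fit where 0 of the 18643 genes were called for sucrose at adequate copper. With slide as a random block they were -0.57 (adjusted p = 0.0672) and 0.74 (adjusted p = 0.0693). The copper difference at 10% sucrose lost its call as well, at -0.43 with the fixed block (adjusted p = 0.770) and -0.47 with the random block (adjusted p = 0.0878).

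**Figure D2:**
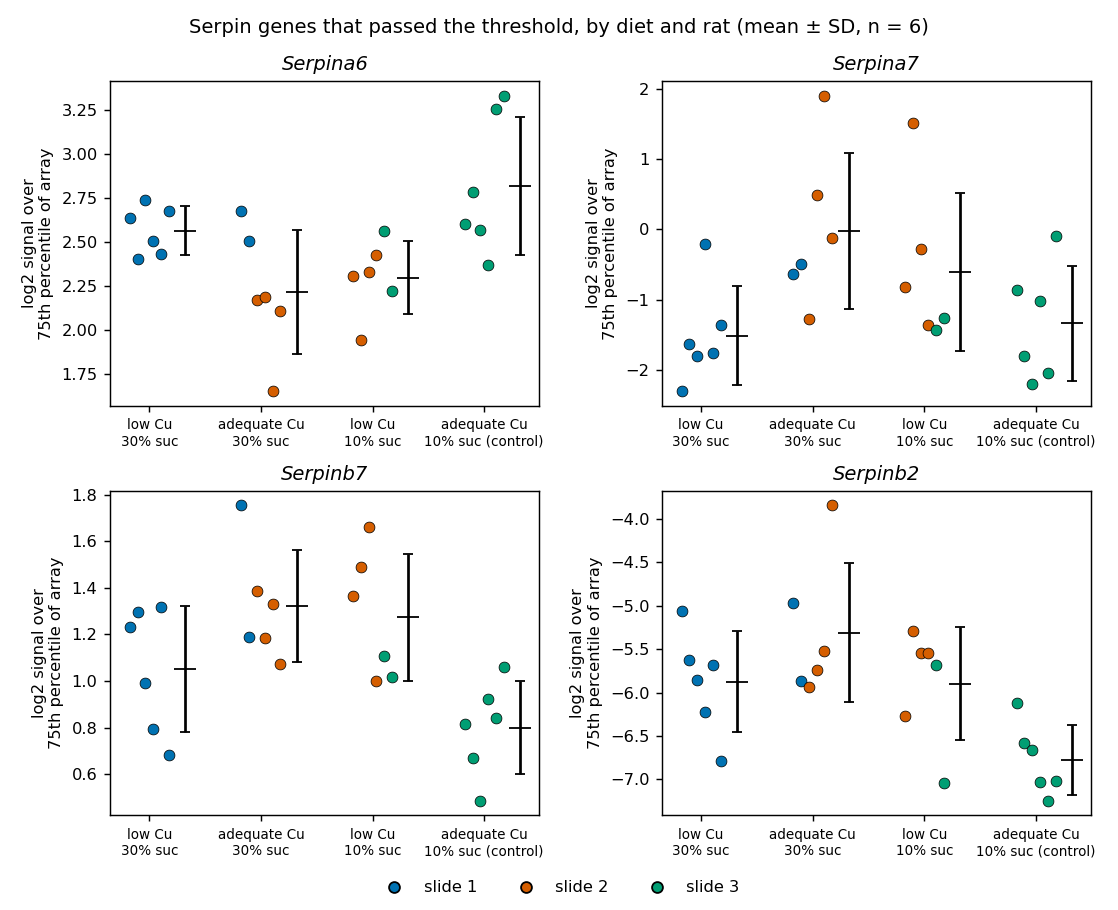
Each point is the log2 level of a gene in 1 rat, placed by diet and coloured by slide, with the mean and SD of the 6 rats as a bar beside them. The 5 lowest Serpina6 levels are those of 4 adequate-copper/30% rats and 1 low-copper/10% rat, all on slide 2, Serpina7 is highest in 1 rat of each of these diets, and Serpinb7 and Serpinb2 are lower in control than in adequate-copper/30% with no overlap.

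Serpina7 varied more between rats than any other hepatocyte-secreted gene, with a within-diet SD of 0.96. It averaged -1.51 ± 0.71 on low-copper/30%, -0.02 ± 1.11 on adequate-copper/30%, -0.61 ± 1.13 on low-copper/10% and -1.34 ± 0.82 on control. The 6 adequate-copper/30% rats had -0.64, -0.50, -1.28, 0.50, 1.91 and -0.12, against -0.87, -1.81, -2.21, -1.02, -2.05 and -0.10 in control rats. All 6 lay above the control mean, but only rats 4 and 5 above the highest control rat, and the log2 difference of 1.32 (95% interval 0.24 to 2.39) did not pass (adjusted p = 0.0757). It passed without adequate-copper/30% rat 3 (1.57, adjusted p = 0.0413), low-copper/10% rat 2 (1.32, adjusted p = 0.0380) or control rat 6 (1.57, adjusted p = 0.0413), and it was 0.47 with slide as a fixed block.

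Low-copper/30% rats had -2.31, -1.64, -1.81, -0.21, -1.77 and -1.36 for Serpina7, and 5 of the 6 lay below the lowest adequate-copper/30% rat. Low-copper/10% rats had -0.82, 1.52, -0.27, -1.37, -1.44 and -1.26, which overlapped with control except for rat 2. The copper difference was thus -1.49 at 30% sucrose (95% interval -2.57 to -0.42, adjusted p = 0.464) and 0.74 at 10% sucrose (-0.34 to 1.81, adjusted p = 0.405). Neither passed alone, and the interaction of -2.23 ± 0.74 did (95% interval -3.75 to -0.71, adjusted p = 0.0339).

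The interaction of Serpina7 depended on single rats. It missed the threshold without any of 8 rats: low-copper/30% rat 1 (-2.07), adequate-copper/30% rats 4 and 5 (-2.12 and -1.84), low-copper/10% rats 2 and 3 (-1.80 and -2.16) and control rats 2, 3 and 5 (-2.13, -2.05 and -2.09). The adjusted p then ran from 0.0526 to 0.0625. Without both adequate-copper/30% rat 5 and low-copper/10% rat 2 it was -1.41 (adjusted p = 0.0923), and with slide as a fixed block -0.94 (adjusted p = 0.719). Within slide 1 the copper difference was -0.95, and within slide 3 it was -0.01.

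The 2 rats in which Serpina7 was highest also stood apart in neutrophil and macrophage markers. The summed level of 6 tested neutrophil markers was 4.30 in adequate-copper/30% rat 5 and 1.96 in low-copper/10% rat 2, and at most 0.88 in the other 22 rats. For 9 macrophage markers the sum was 6.31 and 7.02 in these rats, and at most 5.62 in the other 22. The sum of 6 endothelial markers was 4.71 and 4.44, and at most 4.41 in the other 22. In these rats Serpina6 was at the lowest level of its diet, 1.65 and 1.94, and Serpina7 at the highest, 1.91 and 1.52. Adequate-copper/30% rat 5 had the highest or lowest level of all 24 rats for 12 of the 24 tested serpin genes, more than any other rat. Without both rats the Serpina6 difference of adequate-copper/30% from control was -0.49 (adjusted p = 0.0345) and its interaction 0.69 (adjusted p = 0.0397), while low-copper/10% against control gave -0.45 (adjusted p = 0.0537).

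Among the other serpins, Serpinb7 rose in both diets with a single change. It averaged 1.32 ± 0.24 on adequate-copper/30%, with 1.75, 1.19, 1.39, 1.19, 1.33 and 1.07, against 0.80 ± 0.20 on control, with 0.82, 0.67, 0.49, 0.92, 0.84 and 1.06. The groups did not overlap, by a margin of 1.07 to 1.06. The log2 difference was 0.52 ± 0.15 (95% interval 0.22 to 0.82, adjusted p = 0.0134), a level 1.43 times that of control.

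Low-copper/10% rats averaged 1.27 ± 0.27 for Serpinb7, with 1.37, 1.49, 1.66, 0.998, 1.11 and 1.02. All 6 lay above the control mean and 4 above the highest control rat, and the difference was 0.47 ± 0.15 (95% interval 0.17 to 0.77, adjusted p = 0.0232). The call was lost with slide as a fixed block (0.26, adjusted p = 0.920), which made the difference over 1.5 times smaller, and with slide as a random block (0.44, adjusted p = 0.0676). It was also lost with the normexp background (0.37, adjusted p = 0.0550) and in the authors' values (0.42, adjusted p = 0.0528). Among the rats left out in turn, it was lost without low-copper/10% rat 2 (0.43, adjusted p = 0.0593) or rat 3 (0.40, adjusted p = 0.0752) or control rat 3 (0.41, adjusted p = 0.0661). Low-copper/30% rats averaged 1.05 ± 0.27, with 1.23, 1.29, 0.99, 0.79, 1.32 and 0.68, and their difference of 0.25 from control did not pass (-0.05 to 0.55, adjusted p = 0.405).

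The interaction for Serpinb7 was -0.74 ± 0.21 (95% interval -1.17 to -0.32, adjusted p = 0.0130), and it passed with each of the 24 rats left out. Within slides the copper difference was -0.42 on slide 1 and 0.26 on slide 3, opposite in sign as in the whole set. With slide as a random block the interaction was -0.73 (adjusted p = 0.0473), and as a fixed block -0.68 (adjusted p = 0.304). The sucrose difference at adequate copper was 0.13 with the fixed block (adjusted p = 0.9998), over 1.5 times smaller than without it.

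Serpinb2 was near background. It was well above background in 1 low-copper/30% rat, 5 adequate-copper/30% rats, 4 low-copper/10% rats and 0 control rats, so it passed the filter only through the diets in which it was high. Its calls and its lack of overlap are therefore a description and support nothing else. Adequate-copper/30% rats had -4.97, -5.86, -5.94, -5.74, -5.52 and -3.84, against -6.12, -6.58, -6.66, -7.03, -7.24 and -7.02 in control rats, with no overlap. On the scale of the processed signal the level was at least 2.52-fold higher on adequate-copper/30%, taking for each control rat the higher of the dimmest signal well above background and the probe's own. This bound holds for that scale only, since quantile normalization and the normexp background gave smaller differences. The means were -5.31 ± 0.80 on adequate-copper/30% and -6.78 ± 0.41 on control, and limma gave adjusted p = 0.00458.

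In low-copper/10% rats Serpinb2 averaged -5.89 ± 0.65, and the difference from control did not pass (adjusted p = 0.0788), except without adequate-copper/30% rat 6 (adjusted p = 0.0352) or low-copper/10% rat 6 (adjusted p = 0.0150). In low-copper/30% rats, of which 1 was well above background, it averaged -5.87 ± 0.59, and the difference from control did not pass either (adjusted p = 0.157). The interaction was -1.44 ± 0.48 (adjusted p = 0.0363) and was past the threshold in 13 of the 24 fits that left out 1 rat. The 11 rats whose absence ended it were low-copper/30% rats 4 and 6 (-1.37 and -1.26), adequate-copper/30% rats 1 and 6 (-1.37 and -1.15), low-copper/10% rats 2, 3, 4 and 5 (-1.32, -1.37, -1.37 and -1.40) and control rats 4, 5 and 6 (-1.39, -1.35 and -1.39). It was -0.44 after quantile normalization (adjusted p = 0.538), -0.70 with the normexp background (adjusted p = 0.0577), -0.87 with slide as a fixed block (adjusted p = 0.596) and -1.28 with slide as a random block (adjusted p = 0.132), and it passed in 3 of the 10 alternatives that kept every rat or left out 2. The sucrose difference at adequate copper was 1.46 with the processed signal, 0.74 after quantile normalization (adjusted p = 0.124), 0.50 with the normexp background (adjusted p = 0.0679) and 0.81 with slide as a fixed block (adjusted p = 0.9998).

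Against control, all tested markers of neutrophils, T cells, macrophages and red blood cells lay above 0 on both adequate-copper/30% and low-copper/10%. Of all 18643 genes tested, 10896 and 10872 did. Endothelial and stellate cell markers lay on both sides of 0. Of the 6 tested neutrophil markers 5 were called higher on adequate-copper/30% than on control and 2 on low-copper/10%, and all 3 tested T cell markers were called higher in both contrasts, where 18.4% and 18% of all genes were called higher. The summed neutrophil level ranged from -0.27 to 4.30 on adequate-copper/30%, from -1.18 to 1.96 on low-copper/10% and from -1.26 to -0.19 on low-copper/30%, against -1.65 to -0.66 on control. The defining granule genes Elane, Ngp and Ltf were not tested, as they were well above background in fewer than 6 rats. The T cell marker Cd3e was not tested either, as it was well above background in 1 rat. The T cell sum ranged from -0.08 to 0.82 on adequate-copper/30% and from -0.44 to 0.99 on low-copper/10%, against -1.02 to -0.60 on control. Of 5 red blood cell markers all lay above 0 in both contrasts, with medians of 1.31 and 1.08, and 2 and 0 were called. Their sum ranged from 6.11 to 9.49 on adequate-copper/30% and from 6.96 to 8.65 on low-copper/10%, against 5.66 to 8.16 on control. The macrophage marker Csf1r, the endothelial marker Cdh5 and the stellate cell marker Acta2 were called higher in both contrasts, and Col1a1 on adequate-copper/30%. That made 1 of 9 macrophage, 1 of 6 endothelial and 2 of 7 stellate cell markers on adequate-copper/30%, beside 18.4% of all genes. In both contrasts 3 of 6 endothelial markers lay below 0. Of the 7 stellate cell markers, 2 lay below 0 on adequate-copper/30% and 4 on low-copper/10%. The part of these cells in the levels of Serpinb2, Serpinb7, Serpina6 and Serpina7 was not tested.

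The counts over the family include Serpinb2. In adequate-copper/30% against control, 3 of 24 tested serpin genes were called (12.5%), 2 higher and 1 lower, where 20.9% of all genes were called, 18.4% higher and 2.48% lower. Low-copper/10% against control gave 2 of 24 (8.33%), 1 each way, where 18.6% of all genes were called, 18% higher and 0.595% lower. The interaction gave 4 of 24 (16.7%), 1 positive and 3 negative, where 20.8% of all genes were called, 1.94% positive and 18.9% negative. No test of these shares against each other was made. Over all genes the split between directions depended on the scaling: the higher calls made 88.1% for sucrose at adequate copper, and 60.4% after quantile normalization or 63.5% in the authors' values. For copper at 10% sucrose they made 96.8%, and 74% or 79%, and for the interaction 9.29%, and 38.4% or 31.3%.

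Split by class, the hepatocyte-secreted genes had 1 call of 14, Serpina6, in each of the contrasts of adequate-copper/30% and low-copper/10% with control. Their median log2 difference was -0.06 in both contrasts. The others had 2 calls of 10 and 1 of 10, with medians of 0.21 and 0.19, beside medians of 0.07 and 0.05 over all genes. Of the 24 tested genes, 2 had no overlap between adequate-copper/30% and control rats, Serpinb2 and Serpinb7, where 12.5% of all genes did not overlap. In the other contrasts 0 serpin genes were free of overlap, beside 5.21% of all genes for low-copper/10% and 2.98% for low-copper/30% against control, 0.719% for low-copper/30% against adequate-copper/30% and 0.316% for low-copper/30% against low-copper/10%. After quantile normalization the medians of adequate-copper/30% against control were -0.03 for the hepatocyte-secreted genes and 0.12 for the others, and with slide as a fixed block -0.16 and -0.08. No test of the difference between the classes was made.

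**Figure D3:**
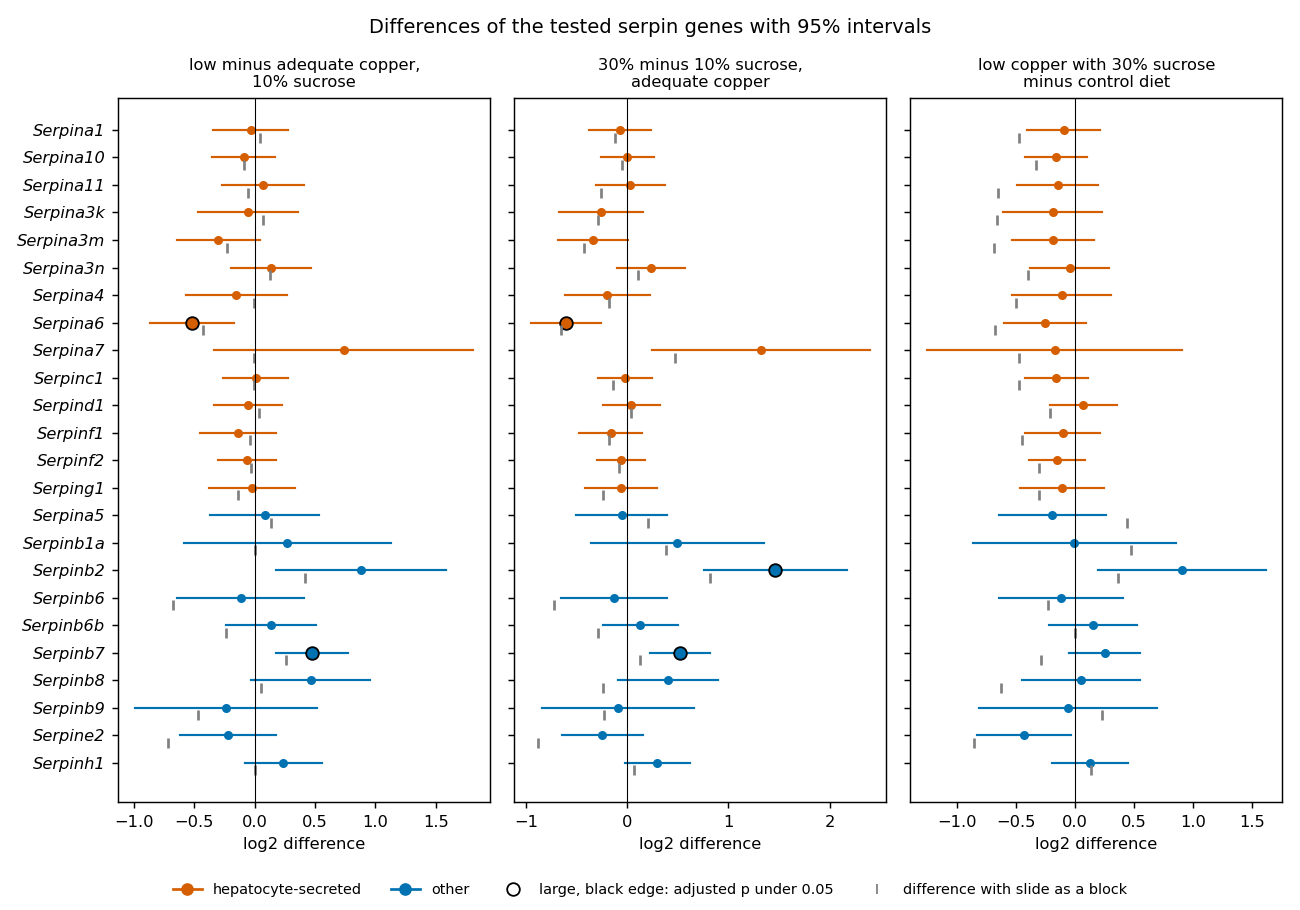
Points are log2 differences of the 24 tested serpin genes with 95% intervals in 3 contrasts, large with a black edge where the adjusted p was under 0.05, and grey ticks are the same differences with slide as a fixed block. The hepatocyte-secreted genes lie close to 0 except Serpina6 and Serpina7, and in the right panel 13 of the 14 lie to the left of 0, with the slide-block values of all 14 further left.

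Neither copper at 30% sucrose nor sucrose at low copper gave a call. Low-copper/30% against adequate-copper/30% had 0 of 24 serpin genes and 0% of all genes called by limma, and at an unadjusted p under 0.05 there were 2 serpin genes, Serpina6 and Serpina7, and 9.86% of all genes. Low-copper/30% against low-copper/10% likewise had 0 called in both, with 0 serpin genes and 9.58% of all genes at an unadjusted p under 0.05. Low-copper/30% against control had 0 serpin genes called, beside 1.76% of all genes, and at an unadjusted p under 0.05 there were 2, Serpinb2 and Serpine2, beside 17.1% of all genes. Serpine2, protease nexin-1, an inhibitor of thrombin and plasminogen activators, gave a difference of -0.43 there (95% interval -0.83 to -0.03, adjusted p = 0.244).

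Serpinh1, the collagen chaperone known as HSP47, averaged 0.10 ± 0.17 on low-copper/30%, 0.27 ± 0.26 on adequate-copper/30%, 0.22 ± 0.32 on low-copper/10% and -0.02 ± 0.31 on control. Its difference of adequate-copper/30% from control was 0.30 (95% interval -0.03 to 0.62, adjusted p = 0.193), with 5 of 6 rats above the control mean.

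The other 7 tested members were Serpina5, Serpinb1a, Serpinb6 (now Serpinb6a), Serpinb6b, Serpinb8, Serpinb9 and Serpine2, and 0 of them were called in any comparison. Of all genes, at most 20.9% were called in any single comparison. Serpinb1a, an inhibitor of the neutrophil proteases elastase, cathepsin G and proteinase 3, was at 0.29 in adequate-copper/30% rat 5, against at most -1.29 in any other rat. That is the rat with the neutrophil sum of 4.30 and the macrophage sum of 6.31. Its second probe overlaps the first by 37 bases and gave differences from control of 0.54 on adequate-copper/30% and 0.24 on low-copper/10%, beside 0.49 and 0.27 for the first. Serpinb8 had an interaction of -0.81 that did not pass (adjusted p = 0.0936), and it passed without low-copper/30% rat 4 (-0.97), adequate-copper/30% rat 3 (-0.95) or low-copper/10% rat 5 (-0.95). The copper differences of this probe were -0.35 at 30% and 0.46 at 10% sucrose. Its dimmer second probe, well above background in all 24 rats, gave -0.38 and only 0.08. Serpinb9, an inhibitor of granzyme B, was well above background in 3 low-copper/30%, 3 adequate-copper/30%, 1 low-copper/10% and 4 control rats.

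The untested members were at or near background. Of the 17, 8 were well above background in 0 rats: Serpinb3, Serpinb5, Serpinb6e, Serpinb9e (now Serpinb9d), Serpinb10, Serpinb12, Serpinb13 and Serpini2. Serpina1f, Serpina9, Serpina12, Serpinb11 and Serpine3 were so in 1 rat each, Serpini1, the neuronal serpin neuroserpin, in 2, Serpinb1b in 3 and Serpinb3a in 4. Probes of Serpinb3 and Serpinb3a shared a run of 23 bases. No serpin probe was saturated on any array.

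Most serpin genes lay in 3 clusters on rn4, and the order there was set against the response. On chromosome 6, between 127887685 and 128469256, the probes ran Serpina10, Serpina6, Serpina1f, Serpina1, Serpina11, Serpina9, Serpina12, Serpina4, Serpina5, Serpina3m, Serpina3k and Serpina3n, of which 9 genes were tested. Serpina6 was the only one of these 9 called in any comparison. It was called on adequate-copper/30% and low-copper/10% against control and in the interaction, where 20.9%, 18.6% and 20.8% of all genes were called. Its neighbour Serpina10 differed by -0.0017 between adequate-copper/30% and control (95% interval -0.26 to 0.26), and Serpina1, the nearest tested gene on the other side, by -0.07 (-0.38 to 0.24), against -0.60 for Serpina6. The differences between these neighbours were not tested. On chromosome 13 Serpinb7 and Serpinb2 followed each other, and of the 10 Serpinb genes there only these and Serpinb8 were tested. On chromosome 17, 4 of 7 Serpinb genes were tested and 0 were called, beside at most 20.9% of all genes in any single comparison.

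**Figure D4:**
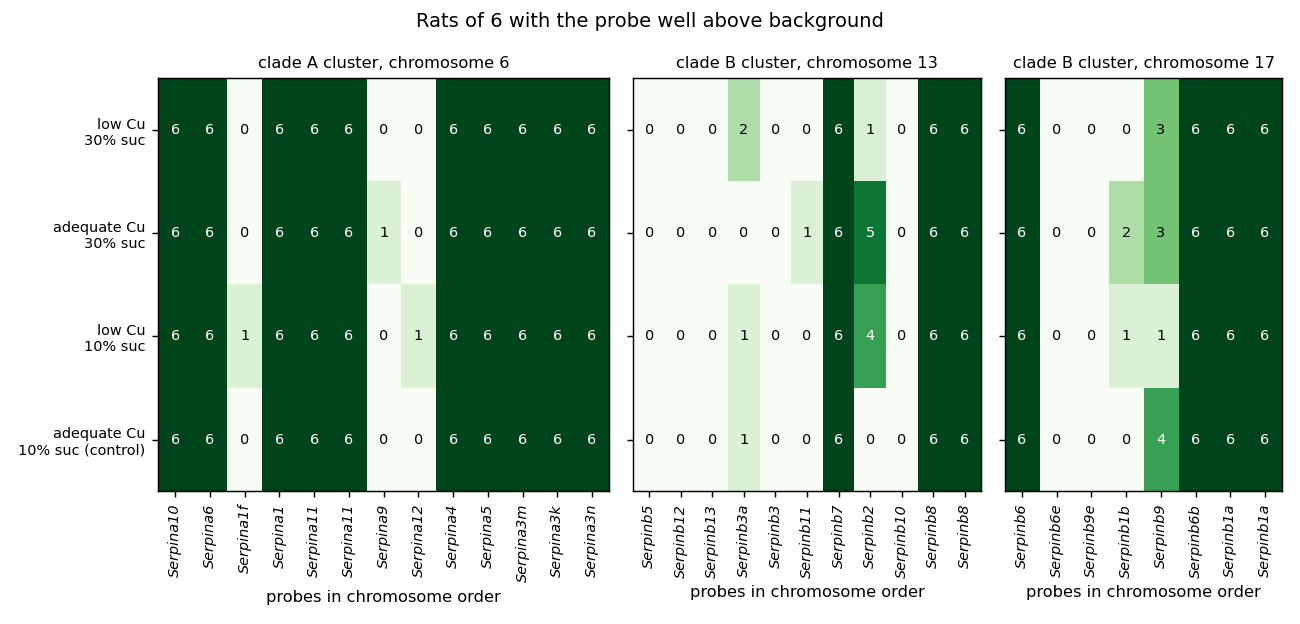
Each cell gives the number of the 6 rats of a diet (rows) in which a probe was well above background, with the probes of the 3 serpin clusters in chromosome order along the horizontal axis. In the chromosome 6 cluster all probes were at 6 in every diet except those of Serpina1f, Serpina9 and Serpina12, while on chromosome 13 those of Serpinb5, Serpinb12, Serpinb13, Serpinb3 and Serpinb10 were at 0 in every diet and Serpinb2 was at 1, 5, 4 and 0 from top to bottom.

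The 250 bases before the annotated start were searched on both strands for 3 motifs, in RefSeq's GRCr8 promoters, for 9 hepatocyte-secreted genes and 24 others that had an entry. Serpina6, Serpina3k, Serpina10, Serpind1 and Serping1 had no entry and were not searched. HNF1 is a liver factor, and C/EBP and STAT factors drive acute phase genes. The HNF1 half-site GTTAAT was in 2 of 9 hepatocyte-secreted genes, 0 of 24 others and 6.45% of 33469 promoters. The C/EBP letters TTGCNNAA were in 3 of 9, 3 of 24 and 9.22%, and the STAT letters TTCNNNGAA in 2 of 9, 0 of 24 and 7.67%. Of the 3 called genes with an entry, Serpina7 held both GTTAAT and TTGCNNAA, Serpinb7 held TTGCNNAA, and Serpinb2 held none of the motifs. Serpina4, which was called in no comparison, also held both GTTAAT and TTGCNNAA. A match of letters is no proof of a site. The Serpina7 window, chrX:107457682-107457931 on the minus strand of GRCr8, is shown as that of the called gene that held both, in capitals, within the last stretch before the start:
Serpina7: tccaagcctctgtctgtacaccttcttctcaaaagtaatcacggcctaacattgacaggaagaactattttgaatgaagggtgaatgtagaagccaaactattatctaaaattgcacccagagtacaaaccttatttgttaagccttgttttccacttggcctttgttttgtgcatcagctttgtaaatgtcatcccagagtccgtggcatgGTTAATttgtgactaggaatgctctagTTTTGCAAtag

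A list of proteases and cofactors linked to plasma serpins had 18 tested genes. Its members Elane, Prtn3, Ctsg and Proz were not tested, so the leukocyte proteases among them are missing here. In the contrasts of adequate-copper/30% and low-copper/10% with control, 20.9% and 18.6% of all genes were called, and 0 of the 18. The 3 with the smallest p for adequate-copper/30% were Proc, protein C, at -0.48 (adjusted p = 0.0602), F11, factor XI, at -0.36 (adjusted p = 0.115), and Pros1, protein S, at -0.34 (adjusted p = 0.128). In the interaction 2 of 18 passed (11.1%, beside 20.8% of all genes): Pros1 at 0.69 (adjusted p = 0.0309), and Plau, urokinase, at -1.46 (adjusted p = 0.0418), which Serpinb2 inhibits. The third, F11, was at 0.55 (adjusted p = 0.0851).

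Of 16 genes that interleukin-6 induces in the acute phase, 15 lay above 0 both on adequate-copper/30% and on low-copper/10% against control. Of all 18643 genes tested, 10896 and 10872 lay above 0 in these contrasts. On adequate-copper/30% against control 3 of 16 rose: Socs3, a feedback inhibitor of cytokine signalling, by 0.67 (adjusted p = 0.0166), Lbp, lipopolysaccharide-binding protein, by 1.48 (adjusted p = 0.0202), and Cp, ceruloplasmin, the plasma copper oxidase, by 0.79 (adjusted p = 0.0366). On low-copper/10% 1 of 16 rose, Socs3, by 0.64 (adjusted p = 0.0223), while Crp gave -0.28 (adjusted p = 0.201) and Lbp 0.67 (adjusted p = 0.370). That is 18.8% and 6.25% of the list called higher, beside 18.4% and 18% of all genes, and no test of these shares was made. In the interaction 2 of 16 passed (12.5%, beside 20.8% of all genes), Socs3 at -1.01 (adjusted p = 0.0121) and Lbp at -1.91 (adjusted p = 0.0335), and Lcn2 at -4.87 did not (adjusted p = 0.127). The list's median difference was 0.29 on adequate-copper/30%, against -0.06 for the hepatocyte-secreted serpins.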

How the data were processed

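Per the file headers, the scans were read with Agilent Feature Extraction 10.7.3.1 (GE1_107_Sep09), and rn4 is the build of the probe positions. The processed signal, per the file headers, is an intensity with background and spatial trend removed, where weak spots hold surrogate values and arrays are not scaled to each other. The mean signal and local background are plain intensities. The authors' series table is a score, centred on 0 and with the same interquartile range of 1 on every array. Its spots rank as those of the deposited mean signal, and the origin of its scale is not given in the sources used here. Deposited spot marks (above background, saturated, outlier) are of the unit other and served as marks only.

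For 58717 spots per array the log2 of the deposited signal was taken relative to the 75th percentile, and spots of a probe were averaged without outliers. The brightest kept probe stood for a gene. The model (limma 3.58.1, R 4.3.3) had a mean per diet over all 24 rats, with two-sided tests and Benjamini-Hochberg adjustment over 18643 genes in each of 6 comparisons. The fit was tested on simulated data. Figures were drawn with matplotlib 3.10.9. Symbols were updated from RefSeq through accessions for 38 of 47 probes and through the name for 9.

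The members and lists were chosen with earlier results of these data known. Named were every hepatocyte-secreted member, Serpinh1, each member called in any comparison, members above background in 0 rats, and of the protease and acute phase lists the 3 smallest p in the comparison described. A few others (Serpinb1a, Serpinb8, Serpinb9, Serpine2 and the detection counts) were named after their values were seen. Of the 17 untested members, 1 is not reported here. The number of arrays limits the precision.

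Alternatives were normexp background (offset 50), quantile normalization, the authors' values put on an assumed intensity scale (floor 5), no filter or all 24 arrays above background, slide as a fixed or random block, a block for replicate number, averaging a gene's probes, only the groups compared, array weights, each rat left out, 2 rats left out together, and differences within 1 slide.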

Additional observations from a re-analysis of the deposited data

Results flagged for a closer look

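In 5 of 96 groups of 6 rats, 1 rat lay far from the other 5, and chance alone gives about 1 in 20 such groups. Low-copper/10% rat 2 was low for Serpina4 at 6.13 and high for Serping1 at 8.09. Adequate-copper/30% rat 5 was high for Serpinb1a at 0.29, low-copper/30% rat 3 was high for Serpina3m at 4.94, and control rat 6 was high for Serpinf2 at 5.52.

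In the test of the interaction itself, 4 of 24 tested serpin genes passed (16.7%), where 20.8% of all genes did. The copper difference changed between 30% and 10% sucrose by -0.74 for Serpinb7, -2.23 for Serpina7, -1.44 for Serpinb2 and 0.87 for Serpina6. None of these passed with slide as a fixed block (adjusted p from 0.304 to 0.719). Serpinb2 passed the filter only through the diets in which it was high.

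Serpinb1b was too dim to be tested, and it was well above background in 2 adequate-copper/30% rats, in 1 low-copper/10% rat and in 0 control rats.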

How the results depend on the processing

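Counts of serpin genes called stayed at 0 for low-copper/30% against adequate-copper/30%, low-copper/10% and control under every alternative run. For adequate-copper/30% against control the count of 3 became 5 without a filter on dim probes, 0 with slide as a block and 1 with slide as a random block (estimated correlation 0.0873), and 3 to 4 with each rat left out. For the interaction the count of 4 became 0 with slide as a block, 1 with slide as a random block, 2 without adequate-copper/30% rat 5 and low-copper/10% rat 2 together, and 2 to 5 with each rat left out. For low-copper/10% against control the count of 2 became 1 with normexp, 0 with the authors' values, 0 with either slide block, 1 with the replicate block, 1 when only the groups compared were fitted, 0 without those 2 rats, and 0 to 3 with each rat left out. The replicate number was not used as a pairing of rats in the main fit. Of 36 correlations of same-numbered rats across diets, 12 were over 0.1 (-0.29 to 0.36). Rats of unlike number were not correlated, so these values cannot decide whether the number pairs rats. Serpina6 in low-copper/30% against adequate-copper/30%, 0.35 in all rats, turned to -0.023 with the fixed block for slide. This is the same estimate as the difference within slide 1, which held 2 adequate-copper/30% rats. Quantile normalization moved the median of all genes in the interaction by over 0.1, to 0.04 in place of -0.10. The causes of these changes were not tested. Low-level genes such as Serpinb2 are limited by signal over background.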
